A study of Mus musculus with 10 samples.

Results

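The genes described here encode the translation initiation factors, the proteins that bring the initiator tRNA, the small ribosomal subunit and the mRNA together. They were taken by name from the count table of platelet RNA-seq libraries, as every symbol that starts with Eif and a digit from 1 to 6. Genes of the eIF2 kinases, of the eIF4E-binding proteins and of the X- and Y-linked gamma subunit of eIF2 (Eif2s3x and Eif2s3y) were left out. This choice went by name and used no measured value, but it was made with earlier results of these data known. It holds 76 of 53819 rows, and 42 of these had enough counts to be tested, of 8198 tested rows. Libraries came from platelets of mice at P7 (taken to mean postnatal day 7) and of adult mice, with 5 libraries for each age. The P7 libraries carry the letters A, B, C, E and I and the adult libraries A, B, C, G and H. The sources used here give no genotype, treatment, strain or sex, and the labels do not say whether a library is 1 animal, a pool or a repeat. The p-values below therefore measure the spread between these libraries, which may be technical.

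Initiation begins when eIF1, eIF1A, eIF3 and eIF5 sit on the small ribosomal subunit and eIF2 delivers the initiator tRNA with GTP. The eIF4F complex, made of the cap-binding protein eIF4E, the scaffold eIF4G and the RNA helicase eIF4A, loads this assembly on the capped end of an mRNA, and it scans to a start codon. After start codon recognition eIF5B joins the large subunit, and eIF2B recharges eIF2 with GTP. Platelets have no nucleus, so their initiation factor mRNAs come from the parent megakaryocyte, and platelets are known to translate some of the mRNAs they carry.

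Total counts ran from 19431863 to 25029931 per library, so that with 0 counts a gene could still lie at up to 0.120 to 0.154 CPM (the count scaled by its library total), taken as 3 counts of the total. Levels are CPM scaled with TMM factors, and fold changes are P7 over adult. A gene was called at a Benjamini-Hochberg adjusted p under 0.05 in edgeR's quasi-likelihood test over all 8198 genes, which called 27.7% of them, 13.8% higher and 13.9% lower at P7. The 15 platelet markers were all tested, with 5 higher and 4 lower, and summed to 62726 to 86236 CPM at P7, against 61618 to 92490 CPM in adults. The summed levels of several lists of markers of other cells also differed between the ages, in part through single genes. Erythroid markers (16 of 25 tested, 5 higher and 0 lower) summed to 987 to 2559 CPM at P7, against 586 to 1782 CPM in adults. Neutrophil markers (2 of 16 tested, 1 higher and 0 lower) summed to 4.02 to 8.40 and 1.62 to 2.05 CPM, with Ly6g and Cxcr2 at 0. B cell markers (3 of 8 tested, 1 higher and 0 lower) summed to 8.09 to 22.9 and 3.27 to 5.87 CPM. Monocyte markers (4 of 13 tested, 0 higher and 1 lower) summed to 2641 to 5629 CPM at P7, against 4155 to 9721 CPM in adults. Lyz2, the 1 lower gene, at 2765 and 4363 CPM on average, and F13a1, which did not pass, at 1135 and 2166 CPM, held nearly all of this. Of the 4 tested, 1 had a fold change above 0. T and NK cell markers (5 of 11 tested, 0 higher and 1 lower) summed to 8.21 to 11.8 and 12.2 to 21.01 CPM. Hepatocyte markers (2 of 8 tested, 0 higher and 1 lower) summed to 7.04 to 12.1 and 19.6 to 34.3 CPM, with Alb and Serpina1a at 0. Afp, the 1 lower gene, made up most of this, at 6.88 and 26.9 CPM on average. Trf, the other tested one, had a log2 fold change of 1.31 ± 0.53 (SE) and did not pass. Of the endothelial (6 of 8 tested), progenitor (2 of 6) and basophil and mast cell markers (1 of 6), 2, 1 and 0 were higher and 0 lower. In such bulk RNA, fewer cells of a type and less RNA per cell cannot be told apart. Nor can RNA of a listed gene made by the platelet lineage itself, as may hold for F13a1, be told from that of other cells.

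Of the 42 tested initiation factor genes, 8 were higher and 7 lower at P7. These are 19.0% and 16.7% of the tested members, beside 13.8% and 13.9% of all genes, so in this edgeR fit the shares lay near the background. The median log2 fold change was 0.35 among the tested members and 0.05 among all genes, with 29 members above 0 and 13 below. Of all tested genes, 4322 lay above 0 and 3876 below. In 5 members every P7 library was above every adult library and in 3 every one was below, where 10.1% and 9.76% of all genes did so (19.8% in either direction). The 8 higher genes were Eif3m, Eif2b4, Eif3i, Eif3k, Eif4a1, Eif4h, Eif3g and Eif4a2, and the 7 lower ones Eif3h, Eif4g3, Eif2s2, Eif1, Eif1a, Eif3a and Eif1b. Of the 6 members with a mean of at least 50 CPM over both ages, 0 were higher and 2 lower. Of the 12 from 5 to 50 CPM, 3 were higher and 3 lower, and of the 24 under 5 CPM, 5 were higher and 2 lower. The shares of all genes at these levels were not computed. Level and fold change had a Spearman correlation of -0.17 over 8028 tested genes and of -0.42 over the 42 members, so a negative trend was not particular to the members.

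**Figure D1:**
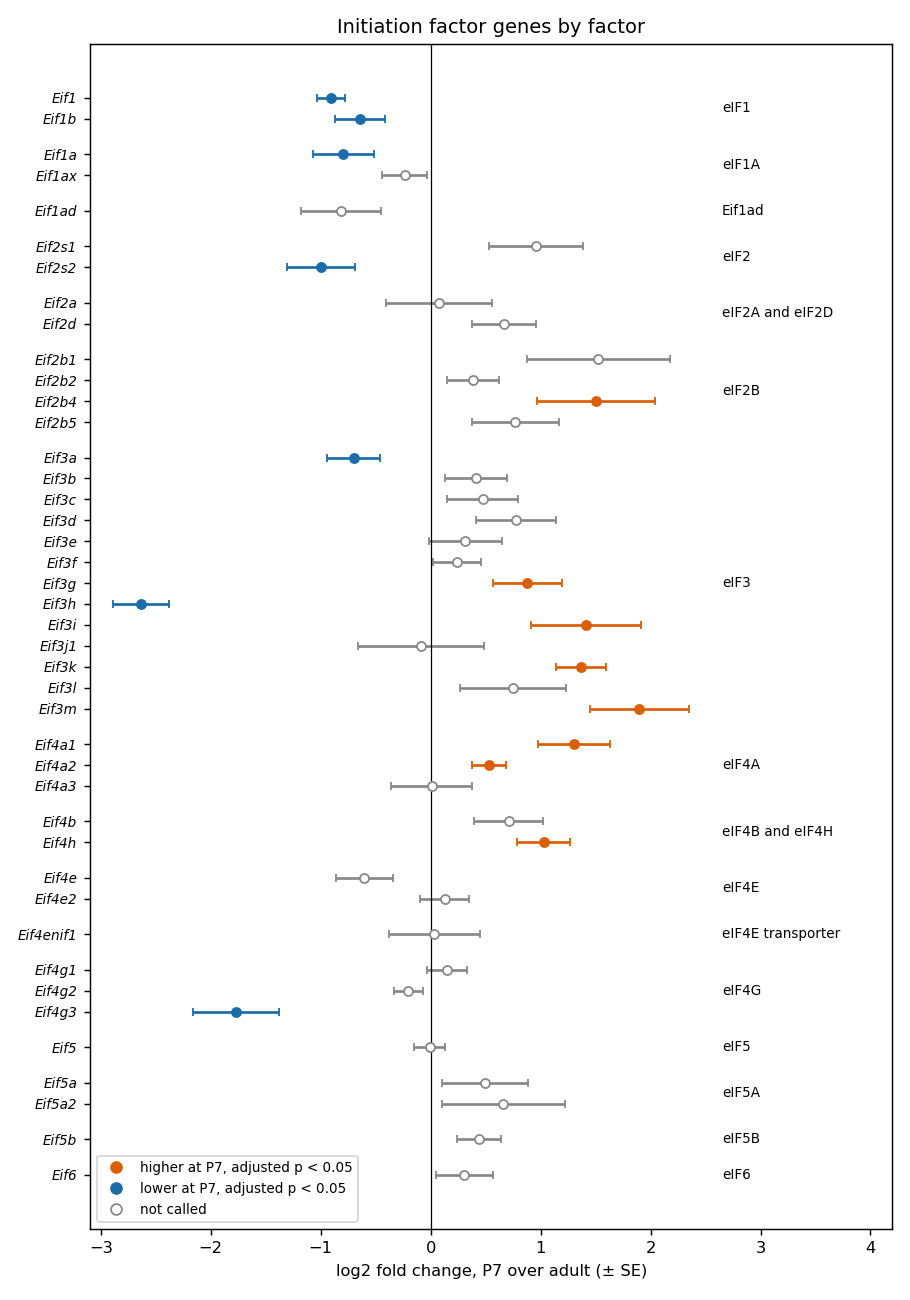
Log2 fold change (P7 over adult, x axis) with its SE for the 42 tested initiation factor genes, grouped by factor, in 10 libraries. Filled points passed the test and open grey points did not. Eif3h stands farthest to the left at -2.63 and Eif3m farthest to the right at 1.90.

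Abundance was very uneven. Eif1 alone held 40.5 ± 3.32% of the summed CPM of all 76 rows at P7 and 50.2 ± 2.84% in adults (mean ± SD of 5 libraries each). Eif4g2 held 26.6 ± 3.77% and 20.1 ± 2.13%, and Eif3h 2.78 ± 0.966% and 11.6 ± 3.27%. Together these 3 genes held 69.8 ± 2.53% at P7, against 81.9 ± 2.66% in adults. All members summed to 2018 ± 74.3 CPM at P7, against 3048 ± 211 CPM in adults, with ranges of 1924 to 2102 and 2748 to 3336 CPM. The summed level was thus lower at P7 although more genes lay above 0 than below, as the genes of highest level weigh most in a sum. Levels per kilobase of exon were used to compare genes with each other. The length is that of all annotated exons merged, which can exceed that of the mRNA present. Ranks, shares and ratios per kb are therefore approximate. On this scale Eif1 was first at both ages, at 390 CPM per kb at P7 and 731 CPM per kb in adults. Eif3h was the second in adults, at 217 CPM per kb, and the fourth at P7, at 35.1 CPM per kb, after Eif5a and Eif4g2.

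The factors of start codon selection were lower at P7 where they passed the test. Eif1 encodes eIF1, which keeps the scanning ribosome open and guards the choice of start codon. It stood at 761, 859, 776, 735 and 959 CPM in P7 libraries A, B, C, E and I. In adult libraries A, B, C, G and H it stood at 1317, 1433, 1756, 1583 and 1577 CPM. The groups did not overlap, and the lowest adult library lay above the highest P7 library by more than the SD of either age. Eif1 fell by 0.91 ± 0.13 on the log2 scale (SE, edgeR quasi-likelihood test, adjusted p = 0.000154). Its close paralog Eif1b stood at 22.7, 27.6, 18.2, 28.7 and 44.6 CPM in the P7 libraries in the same order, and at 31.0, 43.0, 49.6, 51.1 and 46.9 CPM in the adult ones. P7 I, the highest P7 library for Eif1b, lay among the adult values. Eif1b had a log2 fold change of -0.64 ± 0.23 (SE) and passed at an adjusted p of 0.0475 by edgeR. Within the pair, Eif1b held 5.98 ± 1.45% of the CPM per kb at P7 and 5.09 ± 0.55% in adults, so the pair kept nearly the same make-up while both genes fell. The pseudogene rows Eif1-ps1, Eif1-ps2 and Eif1-ps3 held 111, 25 and 4 counts over all libraries, and such near-identical copies can share reads with Eif1.

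Eif1a and the X-linked Eif1ax encode eIF1A, the partner of eIF1 on the small subunit. Eif1a was at 3.02, 3.51, 2.13, 2.80 and 4.15 CPM at P7, against 4.73, 5.67, 3.07, 7.80 and 5.79 CPM in adults, in the order of the letters. Adult C, at 3.07 CPM, lay inside the P7 range, and the log2 fold change was -0.79 ± 0.28 (± SE, adjusted p = 0.0453, edgeR test). Eif1ax averaged 4.81 ± 0.789 CPM at P7, against 5.68 ± 0.512 CPM in adults (mean ± SD of 5 libraries each), with a log2 fold change of -0.24 ± 0.21 (SE) that did not pass. The 2 genes are close in sequence, so reads can be shared between them. Eif1ad, whose product carries an eIF1A-like domain, averaged 1.24 ± 0.667 and 2.20 ± 0.447 CPM (mean ± SD of 5 libraries each). It did not pass at a log2 fold change of -0.81 ± 0.37 (SE). Of the 10 fits with 1 library left out it passed only in that without P7 E, its highest P7 library at 2.32 CPM (-1.19, adjusted p = 0.0273, edgeR test).

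The 2 autosomal subunits of eIF2, which carries the initiator tRNA, differed in that 1 fell and the other did not pass. Eif2s2, the beta subunit, was at 0.966, 1.19, 1.49, 1.48 and 2.24 CPM in the P7 libraries and 2.29, 2.92, 2.44, 4.33 and 2.75 CPM in the adult ones. The groups did not overlap, though the highest P7 value lay only just under the lowest adult one, and Eif2s2 fell by 1.00 ± 0.31 on the log2 scale (SE, edgeR quasi-likelihood test, adjusted p = 0.0253). Eif2s1, the alpha subunit that the eIF2 kinases phosphorylate, averaged 1.93 ± 1.15 CPM at P7, against 0.991 ± 0.280 CPM in adults (mean ± SD of 5 libraries each). Its log2 fold change of 0.96 ± 0.43 (SE) did not pass (adjusted p = 0.109, edgeR test). With 1 library left out it passed in 1 of 10 fits, that without P7 I (1.16, adjusted p = 0.0456, edgeR test). Per kilobase, Eif2s1 held 60.8 ± 18.3% of this pair at P7 and 31.6 ± 6.61% in adults. In P7 I it held 32.1%, within the adult range of 23.7 to 39.5%, while the other 4 P7 libraries were at 54.9 to 76.2%.

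The eIF2B genes encode the exchange factor that reloads eIF2 with GTP, and 4 of its 5 genes were tested, each with a fold change above 0. Eif2b4 was at 1.89, 0.930, 1.13, 1.28 and 0.548 CPM at P7, against 0.143, 0.172, 0.536, 0.814 and 0.344 CPM in adults. It passed, at a log2 fold change of 1.51 ± 0.54 (with its SE, adjusted p = 0.0483, edgeR test), with P7 I among the adult values. Its exons share 204 bases with Snx17 on the other strand, which had 4376 counts over all libraries. The sources used here do not say whether strand was used in counting, so the value of Eif2b4 is uncertain. Eif2b1, at a log2 fold change of 1.52 ± 0.65, Eif2b2, at 0.39 ± 0.24, and Eif2b5, at 0.77 ± 0.39 (SE), did not pass. Eif2b1 passed in 1 of 10 leave-outs, that without adult H, the highest adult library at 0.861 CPM (2.25, adjusted p = 0.0222, edgeR test). The 5 genes summed to 8.47 ± 1.12 CPM at P7, against 5.09 ± 1.36 CPM in adults (mean ± SD of 5 libraries each). Eif2d and Eif2a encode factors that can deliver initiator tRNA without eIF2. Eif2d had a log2 fold change of 0.67 ± 0.29 (SE), which passed only without adult B (0.96, adjusted p = 0.0167, edgeR test), and Eif2a averaged 0.730 ± 0.272 and 0.699 ± 0.375 CPM (mean ± SD of 5 libraries each).

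Among the subunits of eIF3, the scaffold that binds the small subunit and bridges it to the mRNA, 1 gene set itself apart. Eif3h, an MPN-domain subunit of the core of the complex, was at 38.5, 62.3, 51.4, 40.0 and 90.5 CPM in P7 libraries A, B, C, E and I. In adult libraries A, B, C, G and H it was at 403, 472, 353, 246 and 278 CPM. All 5 P7 libraries lay far below all 5 adult libraries. Eif3h fell by 2.63 ± 0.25 on the log2 scale (SE), a 6.20-fold lower level at P7 (edgeR quasi-likelihood test, adjusted p = 1.09e-05). The other 12 tested subunit genes lay between -0.70 and 1.90, with 4 higher and 1 lower. Eif3h was also far above them in level. Per kilobase of exon the other 12 ranged from 0.117 to 4.16 CPM per kb at P7 and from 0.123 to 1.86 CPM per kb in adults. On this scale Eif3h exceeded the next subunit 8.42-fold at P7 and 116.8-fold in adults. These ratios depend on the merged exon lengths, 1612 bases for Eif3h, 2698 for Eif3k and 8731 for Eif3a. In CPM, Eif3h averaged 56.5 at P7, against 11.2 for Eif3k, the next. In adults it averaged 350 CPM, against 16.2 CPM for Eif3a, the next. The core of the complex holds its subunits in equal numbers, but at the RNA level Eif3h held 71.1 ± 8.15% of the CPM per kb of the 14 eIF3 rows at P7 and 95.7 ± 1.20% in adults (mean ± SD of 5 libraries each). The P7 range of this share, 60.9 to 82.2%, did not reach the adult range of 94.6 to 97.2%. No exon of another GENCODE gene overlaps the exons of Eif3h.

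With Eif3h, the eIF3 rows summed to 104 ± 22.7 CPM at P7, against 389 ± 89.9 CPM in adults (mean ± SD of 5 libraries each). Without it they summed to 47.5 ± 8.84 CPM and 39.1 ± 4.19 CPM, a log2 ratio of 0.28. The eIF3 core is an octamer of PCI- and MPN-domain subunits (a, c, e, f, h, k, l and m). In it 2 genes were higher, Eif3k and Eif3m, and 2 lower, Eif3h and Eif3a, of 8. Of the 5 tested genes outside the core (b, d, g, i and j1) 2 were higher, Eif3g and Eif3i, and 0 lower.

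**Figure D2:**
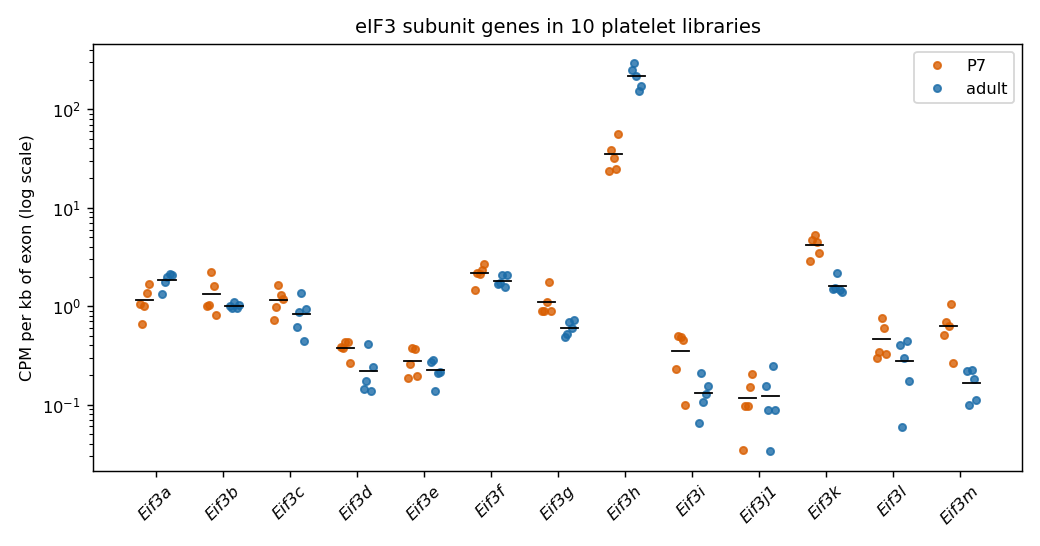
CPM per kb of exon (y axis, log scale) of 13 tested eIF3 subunit genes in each of 5 P7 and 5 adult libraries, with lines at the means. Eif3h averages 35.1 CPM per kb at P7 and 217 CPM per kb in adults, while the other 12 genes average under 5 at both ages.

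Eif3k, the smallest core subunit and one that lies at the edge of the octamer, was at 7.81, 12.8, 14.1, 12.04 and 9.45 CPM at P7. In adults it was at 4.06, 4.17, 5.80, 3.90 and 3.79 CPM, with adult C above the other 4, and the groups did not overlap. Eif3k rose by 1.37 ± 0.23 (SE, log2 scale, edgeR quasi-likelihood test, adjusted p = 0.000515). Eif3m, a PCI-domain subunit, was at 1.33, 1.81, 1.65, 2.72 and 0.685 CPM at P7, against 0.573, 0.258, 0.585, 0.471 and 0.287 CPM in adults, again with no overlap. It rose by 1.90 ± 0.45 (± SE, adjusted p = 0.00571, edgeR test), the largest rise among the members, from low counts. Its exons share 82 bases with Ccdc73 on the other strand, which had 94 counts over all libraries. Eif3a, the largest subunit and the one on which the complex is built, was at 9.17, 5.79, 8.68, 11.8 and 14.5 CPM at P7, against 11.7, 15.5, 17.3, 18.5 and 18.3 CPM in adults. P7 E and I lay above the lowest adult library, and the log2 fold change was -0.70 ± 0.24 (± SE, adjusted p = 0.0413, edgeR test).

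Eif3g, an RNA-binding subunit, was at 1.77, 1.76, 2.21, 3.48 and 1.78 CPM at P7, against 0.955, 1.03, 1.36, 1.20 and 1.43 CPM in adults. The groups did not overlap and P7 E was well above the other 4 P7 libraries. Its log2 fold change was 0.88 ± 0.31 (SE, edgeR quasi-likelihood test, adjusted p = 0.0487). Eif3i, a WD-repeat subunit, was at 0.845, 1.86, 1.81, 1.68 and 0.365 CPM at P7, against 0.239, 0.774, 0.390, 0.471 and 0.574 CPM in adults. P7 I lay among the adult libraries, and the log2 fold change was 1.41 ± 0.50 (± SE, adjusted p = 0.0482, edgeR test). Eif3b, Eif3c, Eif3d, Eif3f and Eif3l did not pass, at log2 fold changes of 0.41, 0.47, 0.77, 0.24 and 0.75. Eif3d passed in 1 of 10 leave-outs, that without adult C, its highest adult library (1.11, adjusted p = 0.0351, edgeR test). Eif3e averaged 1.86 ± 0.605 and 1.496 ± 0.385 CPM and Eif3j1 0.680 ± 0.372 and 0.718 ± 0.484 CPM (mean ± SD of 5 libraries each). Eif3j1 has a near-identical copy, Eif3j2, with 72 counts over all libraries, and reads could be split between them.

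Many mRNAs of the translation apparatus begin with a C and a run of further pyrimidines, the terminal oligopyrimidine tract through which mTOR signalling controls their translation. The windows of 30 bases around the annotated start are shown to let this element be compared between eIF3 genes that rose and 1 that did not pass, and with Eif1. They come from RefSeq, build GRCm38.p6, which had entries for 36 of the 42 tested members (Eif3h, Eif3e, Eif3i, Eif4g2, Eif6 and Eif1a had none). Each runs 5′ to 3′ on the strand of the gene with 15 bases before the start and 15 from it on. Capitals mark a tract that begins at the start itself, defined as a C followed by at least 4 bases that are each C or T, searched on the strand of the gene only.
Eif3f (chr7:108934400-108934429, plus strand): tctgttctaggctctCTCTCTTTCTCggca
Eif3k (chr7:28981874-28981903, minus strand): aaaacaaccggcgctggtgctgaaagcgcc
Eif3m (chr2:105017013-105017042, minus strand): ttttccggtcggcgtgtttctggatcggag
Eif3g (chr9:20898576-20898605, minus strand): tctttacccgggctgggagctgcgtggagt
Eif1 (chr11:100319934-100319963, plus strand): gcgctggcgtcacaggggcggctatataag
Eif3f, which did not pass the test, was the only one of the 36 with a tract at the annotated start, 2.78% against 3.29% of the 6381 tested genes with an entry. With up to 5 bases of slack on either side, 8 of the 36 had one (22.2%, against 24.5%), and all 8 were among the 24 genes that did not pass. The shares with a tract among called and uncalled genes of the whole table were not computed, so this split has no background. The window of Eif3k, and those of Eif3m, Eif3g and Eif1, hold no such tract at that base.

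Among the genes of the eIF4F cap complex, Eif4a1, Eif4a2 and the helper gene Eif4h rose and the scaffold gene Eif4g3 fell. Eif4a1 and Eif4a2 encode the near-identical helicases that unwind the start of the mRNA. Eif4a1 was at 3.14, 4.75, 3.58, 4.92 and 1.96 CPM at P7, against 1.15, 0.860, 2.10, 1.71 and 1.61 CPM in adults. P7 I alone lay inside the adult range, and Eif4a1 rose by 1.31 ± 0.33 (SE, log2 scale, edgeR quasi-likelihood test, adjusted p = 0.00896). Eif4a2 was at 51.2, 60.7, 66.01, 64.5 and 47.6 CPM at P7, against 43.6, 42.2, 33.3, 42.4 and 39.1 CPM in adults, with no overlap. It rose by 0.53 ± 0.15 (± SE, adjusted p = 0.0192, edgeR test). Eif4a3, a member of the exon junction complex by function, averaged 2.38 ± 0.792 and 2.37 ± 1.07 CPM (mean ± SD of 5 libraries each). In these platelets Eif4a2 was the main helicase gene, with 92.9 ± 1.65% of the CPM per kb of Eif4a1 and Eif4a2 at P7 and 95.5 ± 1.84% in adults. The exons of Eif4a1 and Eif4a2 hold or overlap small RNA genes, and the 2 genes can share reads.

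Eif4h, whose product stimulates eIF4A, was at 11.3, 5.73, 9.49, 11.1 and 7.67 CPM at P7, against 3.15, 5.11, 4.14, 5.18 and 4.59 CPM in adults. The groups did not overlap, and Eif4h rose by 1.03 ± 0.24 (SE, log2 scale, edgeR quasi-likelihood test, adjusted p = 0.00565). Eif4b, with the same role, had a log2 fold change of 0.71 ± 0.32 (SE) and did not pass with all libraries. With 1 library left out it passed in 1 of 10 fits, that without P7 I (0.86, adjusted p = 0.0499, edgeR test). The cap-binding gene Eif4e averaged 2.21 ± 0.473 and 3.35 ± 0.622 CPM (mean ± SD of 5 libraries each), a log2 fold change of -0.60 ± 0.26 (SE) that did not pass. Eif4e2, which encodes a cap-binding homolog linked to repression, averaged 9.99 ± 1.61 and 9.15 ± 2.50 CPM. Eif4enif1, the eIF4E transporter gene, averaged 1.04 ± 0.451 and 1.02 ± 0.289 CPM.

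Eif4g3, a scaffold of the eIF4F complex, was at 19.7, 8.16, 5.19, 9.84 and 21.8 CPM at P7, against 61.04, 61.2, 37.0, 40.4 and 21.2 CPM in adults. Adult H, the lowest adult library, lay just under P7 I, the highest at P7, and the other libraries were apart. The log2 fold change was -1.77 ± 0.40 (SE), a 3.41-fold lower level at P7 (edgeR quasi-likelihood test, adjusted p = 0.00521). The main scaffold gene Eif4g1 averaged 53.1 ± 11.04 and 47.8 ± 8.49 CPM (mean ± SD of 5 libraries each). Eif4g2, whose product lacks the eIF4E-binding site and serves initiation without the cap complex, averaged 534 ± 58.5 and 614 ± 88.6 CPM, with a log2 fold change of -0.20 ± 0.14 (SE) that did not pass. It was the most abundant of the 3 by far, with 86.2 ± 1.08% of their CPM per kb at P7 and 84.9 ± 2.60% in adults. Eif4g3 held 1.94 ± 1.18% and 5.76 ± 2.64%, and Eif4g1 11.8 ± 1.29% and 9.30 ± 1.94%. The share of Eif4g3 in adult H, 2.87%, lay within the P7 range of 0.804 to 3.68%.

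**Figure D3:**
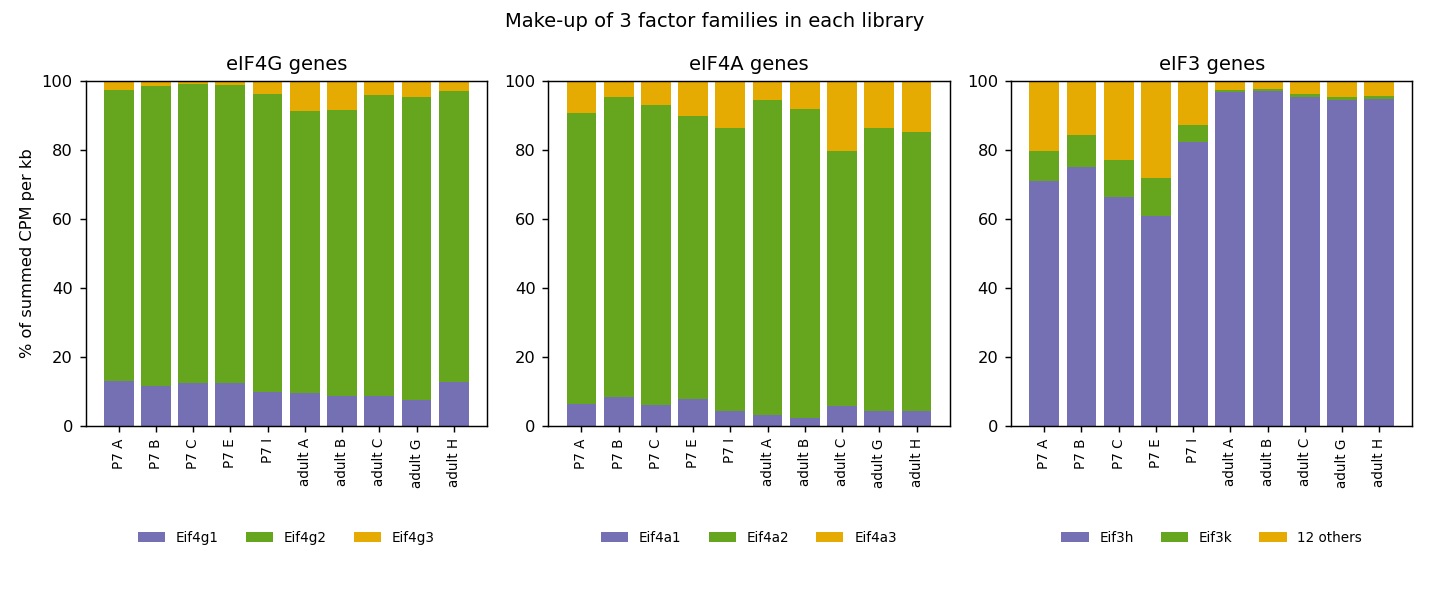
Share of each gene in the summed CPM per kb of its family (y axis, %) in each of the 10 libraries. Eif4g2 and Eif4a2 hold the largest share of their families in each library, and the share of Eif3h is 60.9 to 82.2% at P7, against 94.6 to 97.2% in adults.

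The factors of subunit joining and the late steps gave no call. Eif5, which encodes the GTPase activator of eIF2, averaged 129.9 ± 16.3 CPM at P7, against 131 ± 13.3 CPM in adults (mean ± SD of 5 libraries each), ranges that overlapped almost wholly. Eif5b, the subunit-joining GTPase gene, had a log2 fold change of 0.44 ± 0.20 (SE, edgeR quasi-likelihood test, adjusted p = 0.122). Eif6, whose product keeps the ribosomal subunits apart, had one of 0.30 ± 0.26 (± SE, adjusted p = 0.419, edgeR test). Eif5a and its paralog Eif5a2 encode the hypusine-bearing factor that helps ribosomes through difficult peptide bonds. Both varied widely between libraries of 1 age. Eif5a was at 153, 187, 191, 82.0 and 80.9 CPM at P7, against 72.3, 149, 68.6, 40.1 and 164 CPM in adults. Eif5a2 was at 79.6, 87.4, 37.3, 24.8 and 60.4 CPM at P7, against 16.8, 62.9, 12.2, 18.4 and 72.5 CPM in adults. Adult B and H were the highest adult libraries for both genes, and P7 B was among the 2 highest P7 libraries for both. Log2 fold changes of 0.49 ± 0.39 and 0.66 ± 0.56 (SE) did not pass.

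**Figure D4:**
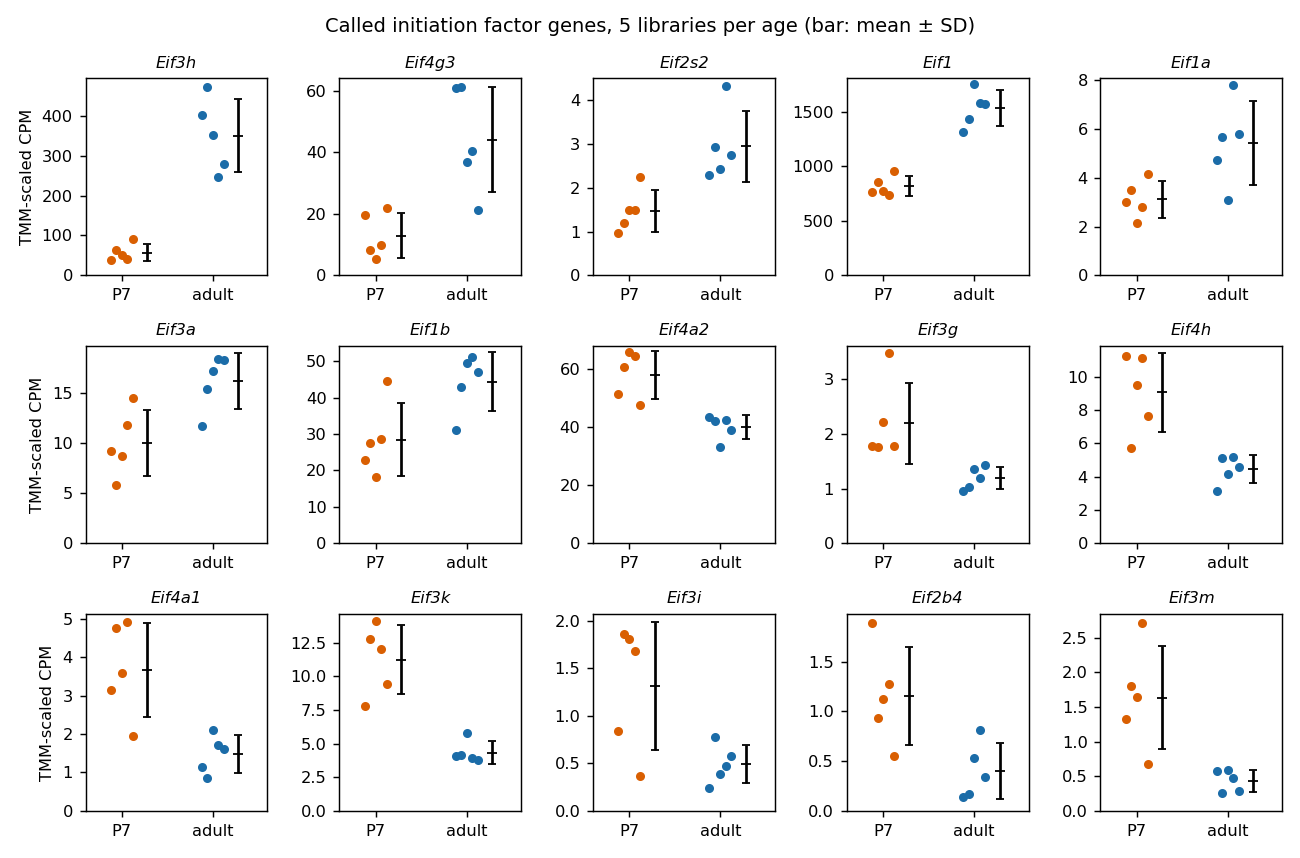
TMM-scaled CPM (y axis, from 0) of the 15 called genes in each of 5 P7 and 5 adult libraries, ordered from the lowest to the highest fold change, with mean ± SD beside the points. Only Eif3h, Eif2s2, Eif1, Eif4a2, Eif3g, Eif4h, Eif3k and Eif3m show no overlap between the ages.

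The 15 calls differed in how firmly they stood when 1 library was left out. Eif1, Eif3h, Eif4g3, Eif3k, Eif3m, Eif4a1 and Eif4h, 7 genes, passed without any 1 of the 10 libraries. Their log2 fold changes in these fits ran from -2.87 to -2.53 for Eif3h, from -0.98 to -0.86 for Eif1 and from 1.27 to 1.49 for Eif3k. The other 8 lost their call at least once. Eif4a2 lost it without P7 C, at 0.48, or P7 E, at 0.47, and Eif2s2 without P7 A, P7 B or adult G, at -0.93 to -0.85. Eif3a lost it without any 1 of P7 A, B and C and adult B, C, G and H, at -0.73 to -0.56. Eif1a lost it without any 1 of P7 A, B, C and E and adult A, B, G and H, at -0.85 to -0.65. Eif1b lost it without any 1 of P7 A, B, C and E and adult B, C, G and H, at -0.67 to -0.52. Eif2b4 lost it without any 1 of P7 A, B, C and E and adult A, B, C and H, at 1.26 to 1.62. Eif3i lost it without any 1 of P7 A, B, C and E and adult A, C, G and H, at 1.22 to 1.52. Eif3g kept its call only without P7 I, and was otherwise at 0.63 to 0.95. In these 10 fits 4 to 10 members were higher and 3 to 7 lower, with 10 higher without P7 I and 4 without P7 C or P7 E. All genes gave 879 to 1160 higher and 964 to 1234 lower. Eif1ad, Eif2s1, Eif2b1, Eif2d, Eif3d and Eif4b, not called with all libraries, each passed in 1 of the 10 fits. That fit was picked as the most favourable for the gene, so such a pass is no call.

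Some properties that the choice by name did not use were compared as well. All 42 tested members had a transcript GC content, with a median of 50.2% beside 49.7% for all genes. The 8 higher members had a median GC of 53.4% (40.2 to 56.8%) and the 7 lower ones of 50.9% (40.0 to 53.8%). Over all genes the medians were 52.8% for those higher and 46.1% for those lower. With the GC trend of each library removed, 7 members were higher and 4 lower, 26.2% of the members beside 25.2% of all genes. Eif1, Eif1b, Eif3h, Eif4g3, Eif3k, Eif3m, Eif4a1, Eif4a2 and Eif4h passed in that fit, while Eif1a (-0.43), Eif2b4 (1.20), Eif2s2 (-0.73), Eif3a (-0.55), Eif3g (0.60) and Eif3i (1.22) did not. Eif2s1 and Eif5b passed only there with all libraries, at 1.33 and 0.64.

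As 5 of the 16 tested erythroid markers were higher at P7, the fit was repeated with the summed erythroid marker level as a covariate. Most of this sum came from Hba-a1, with a mean of 1493 CPM over P7 libraries and 905 CPM over adult ones. Hba-a1 did not pass (edgeR quasi-likelihood test, adjusted p = 0.198). Fech, the most abundant of the 5 higher markers, averaged only 105 and 25.6 CPM. The covariate therefore follows mainly Hba-a1, and the 5 higher markers were not tested as a covariate of their own. With this covariate 4 members were higher (Eif3k, Eif3m, Eif4a1 and Eif4h) and 3 lower (Eif1, Eif1a and Eif3h). These were 16.7% of the members, beside 18.6% of all genes. Among the members that lost their call, Eif2b4 was at 1.81, Eif3i at 1.39, Eif3g at 1.03 and Eif4a2 at 0.59. Of the lower ones, Eif2s2 was at -1.20, Eif1b at -0.84 and Eif3a at -0.84. Eif4g3 was at -1.83 ± 0.59 (SE) and just missed the threshold (edgeR quasi-likelihood test, adjusted p = 0.0502). With the erythroid marker genes removed from the table the counts were 8 and 7, as with all genes. That fit keeps each member's own counts, so it cannot show what part erythroid RNA has in them. The part of the other marker lists in these results was not tested.

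Other genes of translation were read from lists on the same scale, beside 13.8% higher and 13.9% lower among all tested genes. The lists are short, and their counts were not tested against these shares. Of 6 tested elongation factor genes 3 were higher and 0 lower. Eef1a1, which brings tRNAs to the ribosome, rose by 0.97 ± 0.19 (SE), from 58.2 ± 12.8 CPM in adults to 114 ± 25.8 CPM at P7 (mean ± SD of 5 libraries each). Eef1d, of its exchange factor, rose by 1.75 ± 0.47 (SE). Of 11 tested regulators of initiation 3 were higher and 1 lower. Eif4ebp1, whose product holds eIF4E back until mTOR phosphorylates it, stood at 164 ± 47.2 CPM at P7, against 517 ± 127 CPM in adults, and fell by 1.66 ± 0.21 (SE, edgeR quasi-likelihood test, adjusted p = 6.73e-05). Mknk1 and Mknk2, the kinase genes whose products phosphorylate eIF4E, rose by 1.42 ± 0.19 and 0.99 ± 0.23 (SE). Of 4 tested genes of poly(A)-binding proteins and partners 0 were higher and 1 lower, with Paip2 at -0.40. Of 9 tested helicases and eIF3 partners 1 was higher, Bzw2 at 0.99, and 1 lower, Bzw1 at -0.57, a pair whose products mimic eIF5. Of 6 termination and recycling factors and of 3 mitochondrial translation factors, 0 passed in either direction.

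The remaining 34 rows had too few counts to be tested, and 24 of them had 0 counts in each library. They include 17 numbered relatives of Eif1ad, all at 0, 10 pseudogene symbols, 2 Eif4a3-like symbols and Eif2c5, which by background is no initiation factor. The other 4 are coding factor genes. Eif2b3, the fifth eIF2B subunit gene, had 80 counts in 8 libraries, Eif4e3 93 counts in 9 libraries, and Eif3j2 72 counts in 10. Eif4e1b, an oocyte-type cap-binding gene, had 0 counts, which allowed up to 0.154 CPM in the shallowest library.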

How the data were processed

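RNA of platelets from 5 P7 and 5 adult libraries was extracted with Trizol, amplified from poly(A) tails with a SMARTer Ultra Low Input kit and sequenced as single-end reads, per the labels' protocols. Each library's deposited file holds raw counts per gene symbol with no header. The submitters' processing notes name Salmon 1.5.2, featureCounts of Subread 2.0.1, STAR 2.7.9a and fastp 0.23.1 without their roles. The sources used here give no genome build, strand setting or treatment of reads that map to several places, so paralogs, pseudogenes and overlapping genes can share reads.

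The counts were tested with edgeR 4.0.16 in R 4.3.3 (TMM factors, filterByExpr with a minimum count of 10 and a minimum total of 15, robust quasi-likelihood F test, age as the only term), with Benjamini-Hochberg adjustment over all genes tested. The SE of a log2 fold change is its size divided by the square root of F. Exon length is the merged exon length in GENCODE M21, and GC content is that of the longest coding transcript. Alternatives used limma 3.58.1 (voom) and DESeq2 1.42.0, other scaling and filters, each library left out, a replicate block, the summed erythroid markers as a covariate and a fit with the GC trend removed, the last chosen after seeing the data. The test was checked on simulated data. No pair of libraries of 1 age agreed within sampling noise. The mean squared deviation per gene, over its sampling variance, was 99.3 to 233 for pairs with P7 I. It was 43.8 to 85.7 for the other P7 pairs and 65.3 to 165 for the adult pairs. By this measure P7 I lay apart from the other P7 libraries over the genes compared, not only in the members. Limits from a count of 0 cover counting error only.

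Every tested member is named, called members are given by library, and from each list of other translation genes at most 2 called genes per direction, those with the smallest p, are named. The members and lists were chosen with earlier results of these data known. Sums and shares over members carry no test.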

Additional observations from a re-analysis of the deposited data

Results flagged for a closer look

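In each gene and age the gap between the most extreme library and its nearest neighbour was compared with the whole range of the 5 libraries. Of 84 groups tested, 3 exceeded the critical value of 0.71, where chance gives about 1 in 20. P7 E was high for Eif3g, at 3.48 CPM with the nearest P7 library at 2.21 CPM. P7 E was also high for Eif2a, at 1.20 CPM with the nearest at 0.684 CPM. Adult C was high for Eif3k, at 5.80 CPM with the nearest adult library at 4.17 CPM.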

How the results depend on the processing

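Eif1 and Eif3h passed in each of 25 alternatives and Eif3k in each of the 24 that tested it. Counts of higher and lower members were 8 and 7. Lower members were 4 with upper quartile factors, 4 with library size only and 4 with the GC trend removed. Higher members were 5 with limma-voom and 4 with no filter. With a mean of at least 10 CPM they were 1 and 3, and all genes 569 and 646, with fewer genes tested. At an adjusted p under 0.01 they were 4 and 3, and all genes 582 and 646. With the erythroid covariate they were 4 and 3, with 726 genes higher. DESeq2 was run without the expression filter, so its 52 members and 20865 genes are all rows with a count. It called 8 and 7 members, 28.8% beside 14.3% of these genes. Rows of few counts lower the share of all genes more than that of the members. The gap is thus not comparable with the 35.7% beside 27.7% of the filtered edgeR fit. With 1 library left out, members higher were 4 to 10 and lower 3 to 7. Replicate letters A to C occur at both ages. Same-letter deviations correlated at -0.0533, 0.0787 and 0.000318, within the range of -0.141 to 0.158 of the 22 pairs of other letters. This check showed no pairing but cannot decide whether the letters mark pairs. On those 6 libraries the replicate block gave 4 higher and 3 lower members and 660 and 756 genes, and the same libraries without it 6 and 6, and 890 and 996. With the block Eif3m (1.76), Eif4a1 (1.51) and Eif4h (1.04) missed the threshold, and Eif5a (0.93), Eif5a2 (1.41) and Eif4b (1.23) passed. Among genes that did not pass, the sign turned for Eif1ax (0.14), Eif4g2 (0.017) and Eif6 (-0.048) with the GC trend removed, and for Eif5a (-0.0087) and Eif5a2 (-0.29) with the erythroid covariate. Of the 8 genes given by level alone, whose fold change was under its SE, Eif3j1, Eif4a3, Eif4enif1, Eif4g1 and Eif5 also turned with the GC trend removed, and Eif4enif1 with the covariate. The cause was not tested. The median of all genes moved from 0.05 to 0.11 with upper quartile factors or library size only. It moved to 0.23 with DESeq2 and 0.24 with no filter, where all rows with a count entered. None of the 183 summed levels under other scalings, with a library left out or without pseudogene rows moved by more than the SD between libraries. Leaving out 1 of 5 libraries can hardly move a mean that far, so the leave-outs do not show that the sums are stable. Members under 5 CPM rest on few counts.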
